A study of Mus musculus with 12 samples.

Results

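The cytosolic ribosomal protein genes were taken as the protein-coding genes of RefSeq on GRCm38.p6, which is the mm10 build, whose symbol is Rpl or Rps followed by a number. A final a, x or l was allowed, as were Rplp0, Rplp1 and Rplp2, and the Rps6k kinase genes were left out. The rule found 80 of 21887 protein-coding genes: 43 of the large subunit, 29 of the small subunit, 3 of the stalk and 5 paralogs whose symbol ends in l. Their H3K4me3 and H3K27ac were read from CUT&RUN, in which an antibody guides a nuclease to cut out the DNA beside a histone mark, in mouse intestinal organoids. The AA libraries came from organoids given 25 µM AA (arachidonic acid) for 6 days, and the vehicle libraries from organoids given vehicle for the same time, with 2 libraries per group and mark. Both groups had been started from isolated crypts and kept in Matrigel with EGF, Noggin, R-spondin, N-acetyl-L-cysteine, CHIR-99021 (a GSK3 inhibitor), Y-27632 (a ROCK inhibitor), B27 and N2.

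No strain, age, sex or genotype was given in the labels of these libraries. The submitters' design text mentions organoids without a Ptger gene (a prostaglandin E receptor) and an arm with a PGE2 analogue, but no library used here carries either label, so the genotype is not known. Nothing in the labels says that the libraries of a group are from different cultures or animals, so p-values reflect only how far these libraries spread, and that spread may be technical. As a check of the labelled tissue, 16 of 18 intestinal epithelium markers had an H3K4me3 peak at a gene end (Chga and Dclk1 had none), against 2 of 8 fibroblast, 1 of 7 blood cell and 2 of 7 endothelial and glial markers.

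Ribosomal proteins are built into the large and small subunits of the ribosome with the ribosomal RNAs, and cells need them in nearly equal amounts. Their genes are short, active in almost every cell and known for a transcription start inside a run of pyrimidines. That run gives the mRNA its 5′ terminal oligopyrimidine tract, through which mTORC1 and Larp1 control its translation. In the intestine, growing crypt cells make many ribosomes. H3K4me3 marks active promoters, H3K27ac marks active promoters and enhancers, and H3K27me3 is the mark of Polycomb repression.

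The authors deposited 1 score per peak and library, which is the mean coverage per base of the peak times 1 scaling factor per library. Peaks of the caller SEACR were used throughout unless MACS2 is named, and each gene is represented by its strongest peak within 1 kb of a gene end. The AA libraries of H3K4me3 were the shallower ones: over all peaks the median raw depth was 1.37 and 1.46 fragments per base in AA, against 3.38 and 2.35 in vehicle. At the ribosomal protein genes it was 9.31 and 8.91 in AA, against 14.8 and 9.61 in vehicle, so these peaks rest on several fragments per base in each library. The 2 AA libraries differed from each other more than the 2 vehicle libraries did: the median H3K4me3 score of all genes with a peak was 0.834 and 0.701 in AA, against 0.677 and 0.655 in vehicle. Results that rest on 1 of these libraries are therefore given with and without it.

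Of the 80 genes, 78 carried an H3K4me3 peak at a gene end and 78 an H3K27ac peak, where 66% and 54.2% of all protein-coding genes carried one. The same 2 genes lacked both marks, Rpl10l and Rpl39l, retained paralogs known for expression in the testis. The nearest H3K4me3 peak to Rpl10l lay 370658 bp away, and that to Rpl39l 16952 bp away. 2 neighbouring genes shared 1 peak, so the 78 genes stand on 77 distinct H3K4me3 peaks. In the MACS2 set 76 of the genes had an H3K4me3 peak, with Rpl22 and Rpl32l missing as well, and 36 had an H3K27ac peak.

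The H3K4me3 of these genes was above that of the typical promoter but seldom among the highest. Their median score over the 4 libraries was 0.845, against 0.721 for all 14452 genes with a gene-end peak, and 58 of the 78 lay above that gene median. The median ribosomal protein gene stood at percentile 66.1 of genes, and 51 of 78 were in the top 10% of all 58548 peaks. No member fell in the lowest 2 deciles of genes by level, and 11 were in the highest decile. In AA libraries the members' median was 1.01 and 0.904, against 0.763 and 0.734 in vehicle libraries.

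Rps18 and Rps2, both of the small subunit, had the highest H3K4me3. Rps18 scored 1.45 and 1.42 in AA, against 1.15 and 1.17 in vehicle (chr17:33947526-33958034, a peak that also reaches the ends of B3galt4, Vps52 and Wdr46). Rps2 scored 1.49 and 1.37 in AA, against 1.14 and 1.13 in vehicle, which overlaps the values of Rps18 in AA. Rpl7a followed with 1.53 and 1.33 in AA and 1.11 and 1.03 in vehicle, then Rpl23a and Rpl37a. All 5 are core components of a subunit, and the spread between the AA libraries exceeded the steps between neighbours in this order. With MACS2 peaks Rpl37a, at a mean score of 1.75, lay below the family's median of 1.78, and Rps18, Rps2, Rpl7a and Rpl23a lay above it.

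The 5 lowest genes in the SEACR set were 2 paralogs, 2 genes of the X chromosome and Rpl13. Rpl32l, a 592 bp gene inside Map7, was lowest at 0.363 and 0.256 in AA, against 0.494 and 0.507 in vehicle. Its peak (chr10:20200261-20211091) is 10831 bp long, and whether the signal belongs to Rpl32l or to Map7 cannot be told apart. Rpl36a followed at 0.572 and 0.584 in AA, against 0.428 and 0.387 in vehicle, then Rpl13, Rpl10 and Rpl3l. The place of Rpl13 depended on the peak set: with MACS2 peaks its mean score was 2.22, above the family's median of 1.78. Rpl3l, the paralog of Rpl3 known from heart and skeletal muscle, had its peak at its far end, shared with Msrb1, and the RefSeq start of Rpl3l was more than 1 kb away. The other measured paralog, Rps27l, was unlike these: it scored 1.20 and 1.11 in AA and 0.870 and 0.857 in vehicle, above the median of the whole family.

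The 4 X-linked members, Rpl36a, Rpl10, Rpl39 and Rps4x, had a median H3K4me3 score of 0.554, against 0.864 for the 74 autosomal ones. All X-linked genes with a peak showed the same order at 0.434, against 0.730 for all autosomal genes. Rpl10, which acts late in large subunit maturation, scored 0.572 and 0.546 in AA, against 0.495 and 0.473 in vehicle. Sex is not given for these cultures, so the number of X chromosomes behind these values is not known.

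**Figure D1:**
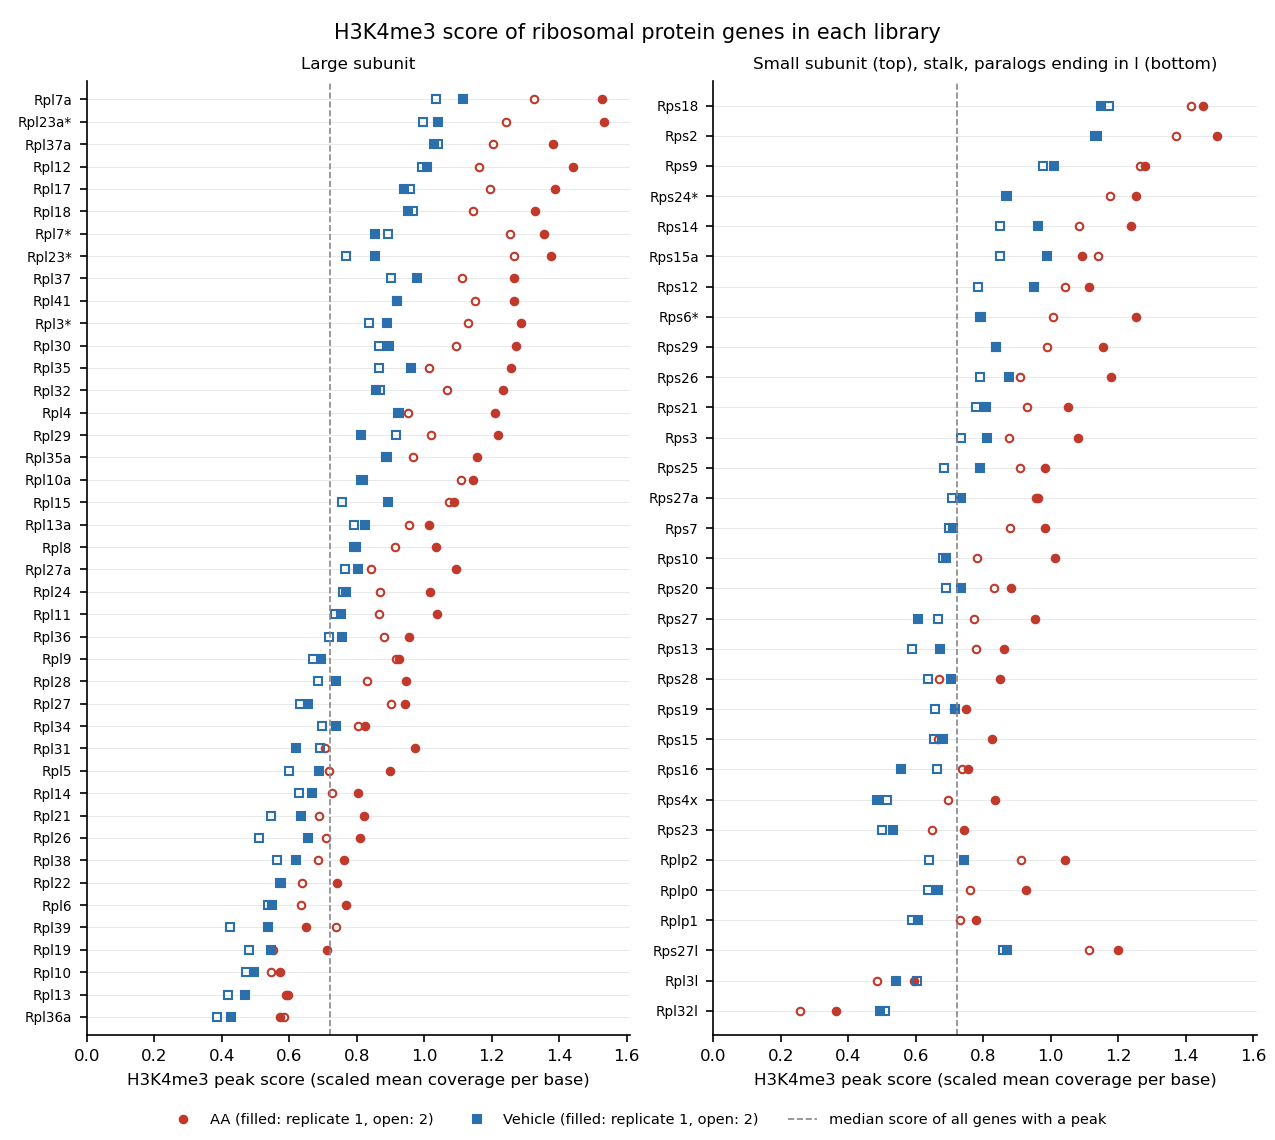
H3K4me3 peak score (scaled mean coverage per base) of ribosomal protein genes in each library (a few of the 78 are not shown), with AA as red circles, vehicle as blue squares, replicate 1 filled and replicate 2 open; an asterisk marks an adjusted p under 0.05. The dashed line is the median of all genes with a peak, 0.721, and in 73 of all 78 genes both AA libraries lay above both vehicle libraries.

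In the SEACR set the peaks of these genes were long. The median H3K4me3 peak measured 6942 bp, against 4166.5 bp for all genes with a peak and 4414 bp for the 78 mitochondrial ribosomal protein genes, which were used as a second set of ubiquitously active genes. Of the 78 peaks, 74 were longer than the gene median. Their H3K4me3 summed over the peak stood at a median percentile of 80.6 among genes, against 66.1 for the score per base. The longest peaks were at Rpl18 with 21251 bp, Rpl35 with 13695 bp and Rpl38 with 13310 bp, and the shortest at Rps29 with 3266 bp and Rps23 with 3524 bp. Long peaks were often shared: 43 of the 78 also reached an end of another protein-coding gene, and these had a median length of 8369 bp, against 5710 bp for the 35 that reached none.

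The genes are short, with a median length of 3169.5 bp against 17169 bp for all protein-coding genes, and the mark usually ran past both ends. The H3K4me3 peak covered the whole gene in 67 of 78, or 85.9%. Among all genes with a peak that were no longer than the longest member, 11774 bp, the share was 17.0%, although most members are far shorter than that limit. H3K27ac covered 53 of 78 genes from end to end, or 67.9%, against 12.7% of all genes within the limit. The 11 genes whose H3K4me3 peak left an end uncovered were Rpl17, Rpl19, Rpl22, Rpl23, Rpl3l, Rpl5, Rps14, Rps15a, Rps20, Rps24 and Rps27l. Across the 78 members the Spearman correlation of peak length with gene length was 0.20, given as a description over genes that share the same 4 libraries.

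**Figure D2:**
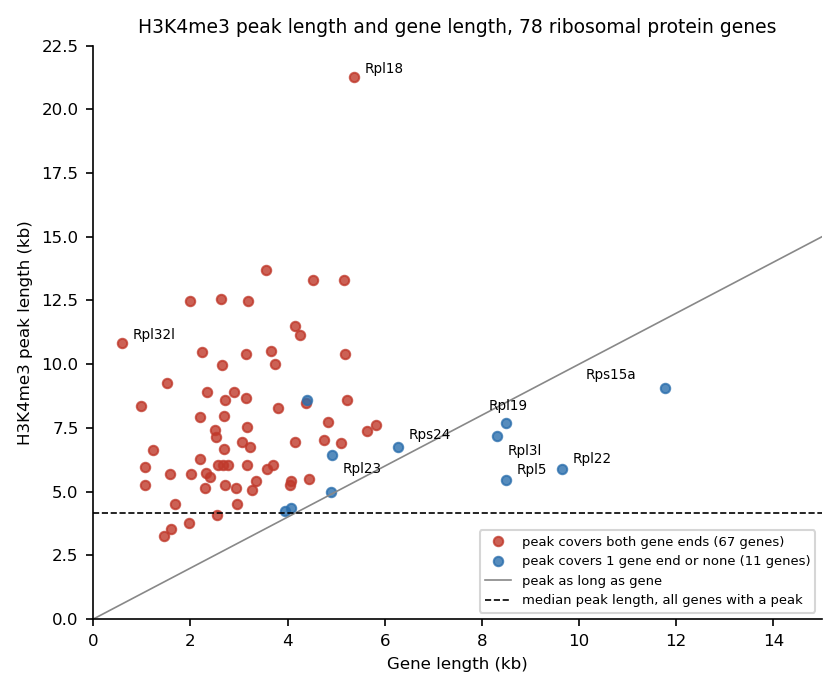
H3K4me3 peak length (kb) against gene length (kb) for 78 ribosomal protein genes; red, peak covers both ends (67 genes); blue, it does not (11 genes). The solid line marks equal lengths and the dashed line the median peak of all genes, 4166.5 bp: 74 of the 78 lie above the dashed line.

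The promoters under these peaks were read from a RefSeq table of GRCm38.p6 that gives 250 bases before to 50 after each start. It held 72 promoters of 60 of the 80 genes, and 32851 promoters in all. Among those not in it were Rpl30, Rps29, Rpl36, Rpl29, Rplp1, Rps27a, Rpl17, Rpl21, Rpl8, Rpl3, Rps20, Rps14, Rpl23a, Rpl7 and Rpl32. For 57 of the 58 members with both a peak and a listed start, a start lay inside the H3K4me3 peak. A run of 8 or more C or T letters on the gene's strand within 20 bases of the start was present in 43.1% of the family's promoters, against 16.0% of all promoters, 15.9% of those of genes with an H3K4me3 peak and 17.3% of the mitochondrial ribosomal set.

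Such runs are shown, in capitals, for 5 genes that carry the results here: Rps18 and Rpl7a with high H3K4me3, Rpl35 with a long peak, and Rps6 and Rps24 with a called change. Each line gives 60 bases before the RefSeq start and 30 from it, on the gene's strand.
Rps18 (chr17:33955636-33955725, minus strand): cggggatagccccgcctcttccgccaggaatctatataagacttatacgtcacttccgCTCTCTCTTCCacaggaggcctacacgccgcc
Rpl7a (chr2:26910747-26910836, plus strand): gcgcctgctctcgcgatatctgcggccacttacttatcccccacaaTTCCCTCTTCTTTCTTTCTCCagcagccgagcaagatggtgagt
Rpl35 (chr2:39005102-39005191, minus strand): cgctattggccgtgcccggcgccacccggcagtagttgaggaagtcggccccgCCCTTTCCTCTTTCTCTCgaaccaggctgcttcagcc
Rps6 (chr4:86857338-86857427, minus strand): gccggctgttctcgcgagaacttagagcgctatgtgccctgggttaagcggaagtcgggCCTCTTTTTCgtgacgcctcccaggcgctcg
Rps24 (chr14:24490618-24490707, plus strand, the first of 2 listed starts): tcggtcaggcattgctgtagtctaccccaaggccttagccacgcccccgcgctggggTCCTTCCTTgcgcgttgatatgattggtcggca
The run was 21 letters long in Rpl7a, 18 in Rpl35, 11 in Rps18, 10 in Rps6 and 9 in Rps24. Other leading genes lacked one: the longest run was 6 letters in Rps2, which had high H3K4me3, and 3 in Rpl23, which had the largest called change. In all, 30 of the 60 listed genes had a run of 8 or more.

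Of 7 motifs searched on both strands in the 300-base windows, 3 were over 2 times as frequent in the family's promoters as in those of H3K4me3-marked genes. CTCTTTCC was in 18.1% of the family's promoters (10 genes), against 3.12% of all promoters, 3.04% of promoters of H3K4me3-marked genes and 1.33% of the mitochondrial set. CCGGAAG, the core letters bound by ETS factors, was in 34.7% (24 genes), against 8.86% of all promoters, 15.7% of promoters of H3K4me3-marked genes and 34.7% of the mitochondrial set. TCTCGCGA was in 15.3% (10 genes: Rpl10a, Rpl12, Rpl26, Rpl27a, Rpl35, Rpl7a, Rps15a, Rps19, Rps28 and Rps6), against 0.995% of all promoters and 1.87% of those of H3K4me3-marked genes. In the following windows these letters are in capitals, and Rpl23, the gene with the largest H3K4me3 change, is shown because none of the 3 is in its window.
Rpl26 (chr11:68901506-68901595, plus strand): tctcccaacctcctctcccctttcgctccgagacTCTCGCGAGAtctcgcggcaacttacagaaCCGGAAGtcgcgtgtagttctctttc
Rps19 (chr7:24884532-24884621, plus strand, the first of 3 listed starts): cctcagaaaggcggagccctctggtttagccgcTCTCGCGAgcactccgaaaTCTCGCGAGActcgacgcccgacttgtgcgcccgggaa
Rpl28 (chr7:4792905-4792994, plus strand): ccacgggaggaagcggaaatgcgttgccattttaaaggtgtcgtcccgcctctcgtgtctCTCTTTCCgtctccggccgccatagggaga
Rpl18 (chr7:45718011-45718100, plus strand): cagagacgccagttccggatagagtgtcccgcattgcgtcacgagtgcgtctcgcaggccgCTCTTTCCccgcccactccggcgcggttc
Rpl11 (chr4:136053364-136053453, minus strand): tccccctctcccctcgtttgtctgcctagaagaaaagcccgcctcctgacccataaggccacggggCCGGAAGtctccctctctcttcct
Rpl23 (chr11:97782410-97782499, minus strand): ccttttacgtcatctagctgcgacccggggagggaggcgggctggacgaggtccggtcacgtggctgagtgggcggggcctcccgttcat
Capitals mark TCTCGCGA and CCGGAAG in Rpl26, TCTCGCGA at 2 places in Rps19, CTCTTTCC in Rpl28 and Rpl18, and CCGGAAG in Rpl11. Where TCTCGCGA is read on both strands at overlapping positions, the capitals cover both reads. A match is a description of letters and not a binding site, and no match says only that these letters are not in this window.

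The other 4 motifs did not stand out in the same way. GGGCGG was in 56.9% of the family's promoters, against 59.8% of promoters of H3K4me3-marked genes. TATAAA was in 9.72%, against 7.82% of them, CACGTG in 11.1%, against 9.59%, and CCAAT in 29.2%, against 37.9%. The level of the mark differed little with the letters: the median H3K4me3 score was 0.755 in the 10 genes with CTCTTTCC, against 0.838 in the 48 without, and 0.848 in the 23 with CCGGAAG, against 0.783 in the 35 without. The median H3K4me3 change under AA was 0.32 with CTCTTTCC and 0.33 without, on the log2 scale.

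The main comparison asked whether AA changed the marks at these genes. H3K4me3 at the ribosomal protein genes was slightly higher in AA across most of the family, and 6 genes passed the test. All changes are AA minus vehicle on the log2(score + pseudocount) scale from limma fitted to all peaks of the mark, called at an adjusted p under 0.05. Both AA libraries lay above both vehicle libraries in 73 of the 78 genes, where 18.3% of all peaks and 51% of all genes with a peak did so. Of the other 5, Rpl32l had both AA libraries below vehicle, and in Rpl3l, Rps15, Rps19 and Rps28 the groups overlapped. Both AA libraries were also above vehicle in 63 of 78 mitochondrial ribosomal protein genes. The same held for 1206 of 1445 and 1307 of 1446 genes in the 2 highest deciles of H3K4me3 level. The median change of the 78 family members was 0.34, against 0.20 for all genes with a peak and -0.19 for all peaks. In a bulk assay of this kind, a change in the share of cells that carry the mark and a change in the signal per cell cannot be told apart.

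Across all genes with a peak, the change was larger where the mark was stronger. The median change of all genes was 0.30 and 0.35 in the 2 highest deciles of H3K4me3 level, which held 16 and 11 members. It lay between -0.0041 and 0.28 in the third to the eighth decile, which held the other 51. Over the 78 members, change and vehicle level had a Spearman correlation of 0.073, given as a description. The deciles use the level over all 4 libraries, and the vehicle level is itself subtracted in the change. This correlation therefore cannot be set against the trend over deciles. Of the 1446 genes in the highest decile, 381 were called higher and 1 lower. The 78 mitochondrial ribosomal protein genes had a median of 0.33. No test of the family against these sets was made.

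The 6 called genes were all higher in AA, 6 of 78 where 1.54% of all peaks and 5.45% of all genes with a peak were called higher, and no member was called lower, where 1.38% of all peaks and 1.2% of all genes with a peak were. Without adjustment 48 of the 78 had a p under 0.05, against 16.2% of all peaks and 31.6% of all genes with a peak. Rpl23, a large subunit protein that sits at the contact with the small subunit, scored 1.38 and 1.27 in AA, against 0.855 and 0.767 in vehicle (chr11:97778157-97784609). The groups stood well apart, and the change was 0.69 ± 0.14 (SE, limma adjusted p = 0.000485). Its peak reached the end of no other gene, and its promoter window is among those shown.

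Rpl7, another protein of the large subunit, scored 1.35 and 1.25 in AA, against 0.855 and 0.892 in vehicle. The peak (chr1:16100718-16109398) also reaches Rdh10, and the change was 0.56 ± 0.14 (limma adjusted p = 0.00746). Rpl3, which lies beside the peptidyl transferase centre, scored 1.29 and 1.13 in AA, against 0.891 and 0.835 in vehicle. That is a change of 0.47 ± 0.14 (limma adjusted p = 0.0431) at chr15:80077646-80085016. Rpl23a, which lies at the exit of the nascent chain tunnel, scored 1.53 and 1.24 in AA, against 1.04 and 0.997 in vehicle. Its change was 0.43 ± 0.13 (limma adjusted p = 0.0438), in a peak shared with Nek8 and Tlcd1 (chr11:78175262-78185241).

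The 2 called genes of the small subunit were Rps6 and Rps24. Rps6, the protein phosphorylated by the S6 kinases downstream of mTORC1, scored 1.25 and 1.01 in AA, against 0.790 and 0.792 in vehicle. Its change was 0.49 ± 0.15 (limma adjusted p = 0.0438; chr4:86853988-86859065). Rps24, mutated in some patients with Diamond-Blackfan anaemia, scored 1.25 and 1.18 in AA, against 0.871 and 0.866 in vehicle. Its change was 0.47 ± 0.14 (limma adjusted p = 0.0414; chr14:24490100-24496848). In both genes the 2 vehicle libraries were nearly equal, and all 4 libraries kept the order of the groups.

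These 6 calls depended on the libraries and on the test. With limma without trend and robust none of the 78 genes passed, even at an unadjusted p under 0.05, and no peak was called among all peaks. On simulated data the test with trend and robust called more false H3K4me3 peaks than its threshold states, which bears on the 4 calls with an adjusted p just under 0.05. Each passed without AA replicate 1 and without AA replicate 2, and none passed without vehicle replicate 1 or without vehicle replicate 2, where the highest limma adjusted p was 0.884 for each. With either vehicle library out, the residual spread came from the 2 AA libraries alone. Calls were then rare among all genes with a peak too, so their absence at the members is not particular to the family. With AA replicate 1 out, 25 members were called higher and 1 lower, where 14.7% of all genes with a peak were called higher. With AA replicate 2 out, 59 were called higher, where 44.3% of all genes with a peak were. In each such fit the lone library was assumed to vary like the others. Over those fits the median change of the family lay between 0.24 and 0.45, and that of all genes with a peak between 0.081 and 0.31. The sign for the family could not turn, since both AA libraries lay above both vehicle libraries in 73 of the 78 genes.

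**Figure D3:**
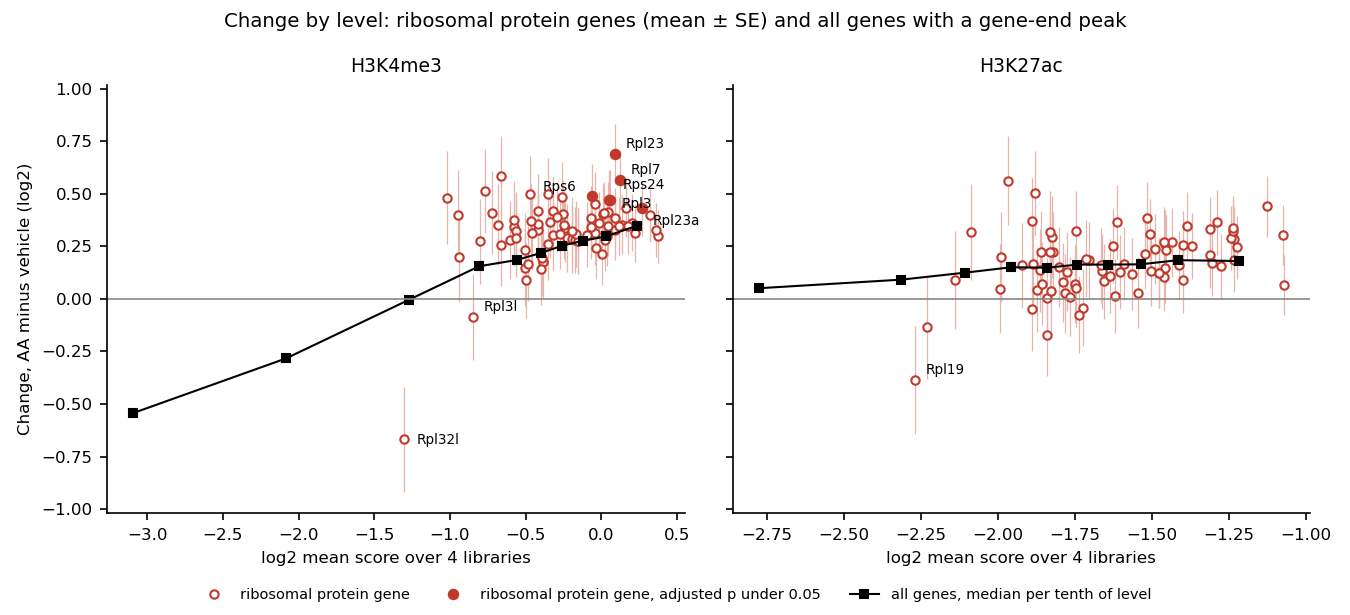
Change between AA and vehicle (log2) against the log2 mean score, H3K4me3 on the left and H3K27ac on the right; circles are ribosomal protein genes with the SE, filled where the adjusted p was under 0.05. Black squares are medians of all genes per decile of level, which stand at 0.35 for H3K4me3 and 0.18 for H3K27ac in the highest decile.

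By role, 4 of 43 large subunit genes were called higher, with a median change of 0.35, and 2 of 29 small subunit genes, with a median of 0.33, where 5.45% of all genes with a peak were called higher. None of the 3 stalk genes was called. Rplp0, Rplp1 and Rplp2 form the stalk that recruits the elongation factors. Rplp2 scored 1.04 and 0.913 in AA, against 0.743 and 0.639 in vehicle, a change of 0.49 ± 0.16 (limma adjusted p = 0.0760). Rplp0 scored 0.927 and 0.760 in AA, against 0.665 and 0.637 in vehicle, and Rplp1 0.777 and 0.731, against 0.606 and 0.588. All 3 had both AA libraries above vehicle, without passing the test.

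Rpl5 and Rpl11 bind the small ribosomal RNA of the large subunit before it is assembled. Rpl11 scored 1.04 and 0.867 in AA, against 0.754 and 0.735 in vehicle (limma adjusted p = 0.266). Rpl5 scored 0.900 and 0.719 in AA, against 0.689 and 0.600 in vehicle (limma adjusted p = 0.373). Rps19, the gene most often mutated in Diamond-Blackfan anaemia, gave the smallest positive change among the members named here. It scored 0.749 and 0.713 in AA, against 0.717 and 0.656 in vehicle, so the groups overlapped (0.09 ± 0.18, limma adjusted p = 0.818).

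None of the 4 X-linked genes was called in the main fit, and their changes were unequal. Rps4x scored 0.833 and 0.695 in AA, against 0.484 and 0.515 in vehicle, a change of 0.58 ± 0.19 (limma adjusted p = 0.0690). Rpl39, which lines the exit tunnel, scored 0.650 and 0.737 in AA, against 0.538 and 0.424 in vehicle (limma adjusted p = 0.144). Rpl36a changed by 0.48 (limma adjusted p = 0.242) and Rpl10 by 0.20 (limma adjusted p = 0.665), below the autosomal median. Quantile normalization called Rps4x (limma adjusted p = 0.0120) and Rpl39 (limma adjusted p = 0.0480) higher. Centring on the strongest 25% of peaks called Rps4x (limma adjusted p = 0.0181) but not Rpl39 (limma adjusted p = 0.0819). With MACS2 peaks neither was called (limma adjusted p = 0.176 and 0.0801). The median change of the 4 X-linked genes was 0.50, against 0.34 for the autosomal members, and this difference was not tested.

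The paralogs did not move as a group. Rps27l changed by 0.41 (limma adjusted p = 0.0993), Rpl3l by -0.09 (limma adjusted p = 0.849) and Rpl32l by -0.67 ± 0.25 (limma adjusted p = 0.122). Rpl32l was the 1 member with both AA libraries below both vehicle libraries, against 30.5% of all peaks and 13.9% of all genes with a peak. It was called lower after quantile normalization (limma adjusted p = 0.0283), after centring on the strongest 25% of peaks (0.000721) and with the mean over all gene-end peaks (0.0291). The share of all peaks called lower under these settings is not given here. It was not called with centring on the median of all peaks (limma adjusted p = 0.294), the replicate number as a block (0.110) or limma without trend and robust (0.498). With a library left out its change lay between -0.90 and -0.44, and it had no MACS2 peak at a gene end.

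The share of called genes also moved with the scaling between libraries. The median score of all peaks was 0.149 and 0.148 in AA, against 0.174 and 0.179 in vehicle, while that of gene-end peaks was higher in AA. With each library centred on the median of all peaks, 63 of 78 members were called higher, where 37.5% of all genes with a peak were. With quantile normalization 4 were called higher, where 1.67% of all peaks and 3.01% of all genes with a peak were, and 1 lower. Of the 6 genes above only Rpl23 (limma adjusted p = 0.000193) and Rpl7 (0.0263) passed with this normalization. The family's median change then fell to 0.12, against 0.02 for all genes with a peak. It lay above the median of all genes with a peak under each setting plotted.

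In the MACS2 set 12 of 76 genes were called higher and none lower, where 5.22% of all MACS2 peaks and 9.64% of all genes with such a peak were called higher. Rpl23, Rpl23a and Rpl7 were called in both peak sets. Among the other 9 were Rpl35, Rpl18, Rplp2, Rps16, Rpl7a, Rps15a, Rps27a and Rpl13. MACS2 peaks were shorter, and there the family's peaks differed less in length: the median was 1538 bp, against 1379 bp for all genes with such a peak, with a median score of 1.78 against 1.52. For H3K27ac the MACS2 median was 355.5 bp at the family, against 371 bp for all genes.

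**Figure D4:**
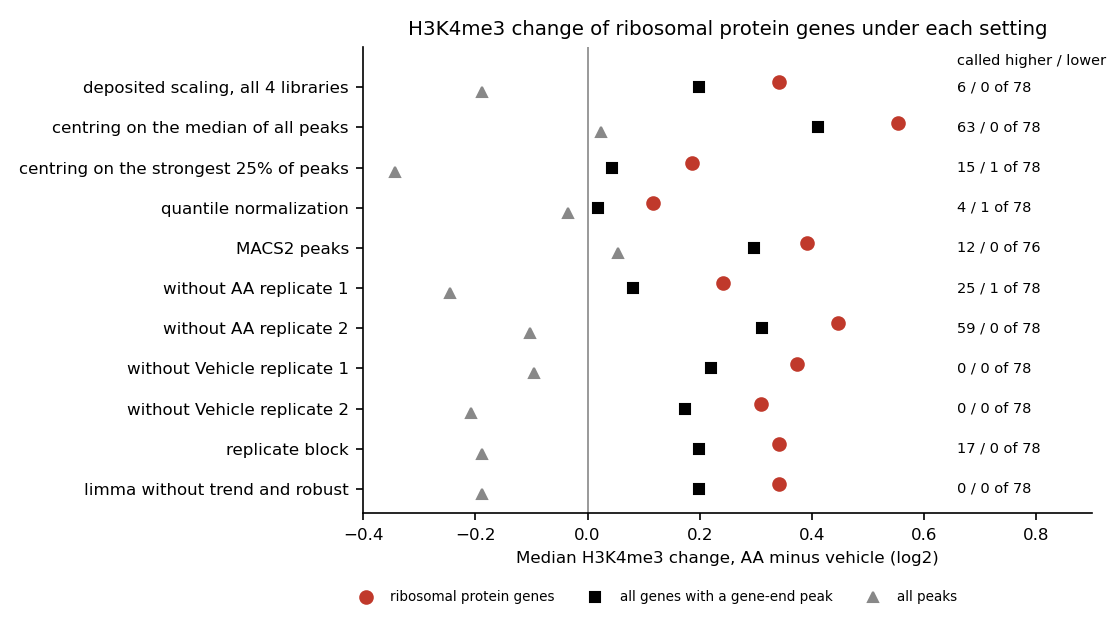
Median H3K4me3 change (log2, AA minus vehicle) of ribosomal protein genes (red circles), all genes with a gene-end peak (black squares) and all peaks (grey triangles) under each setting, with the number of members called higher and lower. The red circles stay right of the black squares, from 0.12 with quantile normalization to 0.55 with centring on the median of all peaks, while the calls range between 0 and 63.

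Lists of related genes were counted in the same way for H3K4me3, beside the 5.45% of all genes with a peak that were called higher. The mitochondrial ribosomal proteins had 7 of 78 called higher and none lower, led by Mrps34 at 1.61 and 1.71 in AA, against 1.18 and 1.17 in vehicle (0.49 ± 0.12, limma adjusted p = 0.00585). Of 43 ribosome biogenesis genes 5 were called higher and none lower. Among these, Wdr12, part of the PeBoW complex that matures the large subunit, scored 1.36 and 1.12 in AA, against 0.801 and 0.828 in vehicle (0.58 ± 0.15, limma adjusted p = 0.00792). Of 9 further subunit genes with other symbols 1 was called higher and none lower, Rack1, at 1.55 and 1.40 in AA, against 1.12 and 1.08 in vehicle.

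Of 26 translation factors and other genes with terminal oligopyrimidine mRNAs, 2 were called higher and none lower, Naca and Eif3a. Naca, a subunit of the nascent polypeptide-associated complex, scored 1.37 and 1.30 in AA, against 0.915 and 0.926 in vehicle. Of 24 regulators of ribosomal protein synthesis 3 were called higher and 1 lower, where 1.2% of all genes with a peak were called lower. Those called higher were Trp53 (0.49, limma adjusted p = 0.0130), Tbp (0.49, limma adjusted p = 0.0252) and Akt1 (0.53, limma adjusted p = 0.0261). The one called lower was Larp1, the protein that binds the oligopyrimidine tract of these mRNAs and represses their translation when mTORC1 is inactive. Larp1 scored 0.355 and 0.275 in AA, against 0.608 and 0.589 in vehicle (-0.89 ± 0.24, limma adjusted p = 0.0153). Like the 6 members, each of the list genes named here for H3K4me3 passed in 2 of 4 fits that left out a library, and none without a vehicle library.

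H3K27ac at these genes showed no called change. Of 78 genes none passed in either direction, where 0.155% of all peaks and 0.278% of all genes with a peak were called higher, and 0.0448% and 0.00843% lower. Without adjustment 11 of 78 had a limma p under 0.05, against 11.9% of all genes with a peak, and none was called under any alternative run. With MACS2 peaks, 0% of all peaks were called higher. Both AA libraries lay above both vehicle libraries in 47 genes, where 28.5% of all peaks and 41.4% of all genes with a peak did so, and below them in Rpl19 and Rps4x, where 10.7% of all peaks and 5.06% of all genes with a peak lay below. The median change was 0.17, against 0.15 for all genes with a peak and 0.11 for all peaks.

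The H3K27ac level of the family was again above the gene median, 0.323 against 0.289 for all 11868 genes with a peak. It was highest at Rps14, with 0.453 and 0.524 in AA, against 0.434 and 0.493 in vehicle, and at Rpl18, with 0.505 and 0.558 in AA, against 0.454 and 0.382 in vehicle. Rps14, a small subunit protein needed for maturation of its ribosomal RNA, thus had overlapping groups. Rpl19 was lowest, at 0.148 and 0.194 in AA, against 0.264 and 0.224 in vehicle (-0.39 ± 0.26, limma adjusted p = 0.760). The coverage behind these values was low, with a median raw depth at members of 3.95 and 5.04 fragments per base in AA, against 3.19 and 4.06 in vehicle.

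The largest positive H3K27ac changes were at Rpl36a, Rps23 and Rpl36. Rpl36a scored 0.322 and 0.314 in AA, against 0.209 and 0.178 in vehicle (0.56 ± 0.21, limma adjusted p = 0.398). Rps23, which lies at the decoding centre, scored 0.345 and 0.316 in AA, against 0.231 and 0.195 in vehicle (limma adjusted p = 0.463). Rpl36 scored 0.574 and 0.504 in AA, against 0.387 and 0.370 in vehicle (limma adjusted p = 0.250). In all 3 the groups were separate, and none passed. Of the lists beside the family, Mrps17 (0.63, limma adjusted p = 0.0404) and Wdr75 (0.67, limma adjusted p = 0.0227) were called higher for H3K27ac. Of the 4 fits that left out a library, Wdr75 passed in none and Mrps17 in 1.

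The 2 marks ranked the genes alike in level but not in change. Over 78 genes the Spearman correlation of H3K4me3 with H3K27ac level was 0.54, against 0.57 over the 11367 genes with both marks, and that of the 2 changes was 0.10. These describe genes that share libraries within each mark. Rps9 had high H3K4me3, with 1.28 and 1.26 in AA and 1.01 and 0.976 in vehicle, beside H3K27ac of 0.245 and 0.292 in AA and 0.232 and 0.172 in vehicle, among the lowest of the family. Rpl32l was the reverse, with the lowest H3K4me3 beside an H3K27ac score of 0.413 over the 4 libraries. The high H3K4me3 of Rps9 was not seen with MACS2 peaks, where its mean score of 1.70 lay below the family's median of 1.78.

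The difference between the H3K4me3 and the H3K27ac change was tested in limma over the 8 libraries. None of the 78 genes passed, where 0.387% of the 11367 genes did, and 9 of 78 had an unadjusted p under 0.05, against 8.31%. The median difference was 0.15, against 0.07 for all genes. The extremes were Rpl32l at -0.83 (limma adjusted p = 0.295) and Rps4x at 0.72 (limma adjusted p = 0.416). With libraries centred on the median of all peaks 14 members passed. The median difference was then 0.44 for members and 0.36 for all genes. The share of all genes that passed under this centring is not given here, so the 14 cannot be set against it.

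**Figure D5:**
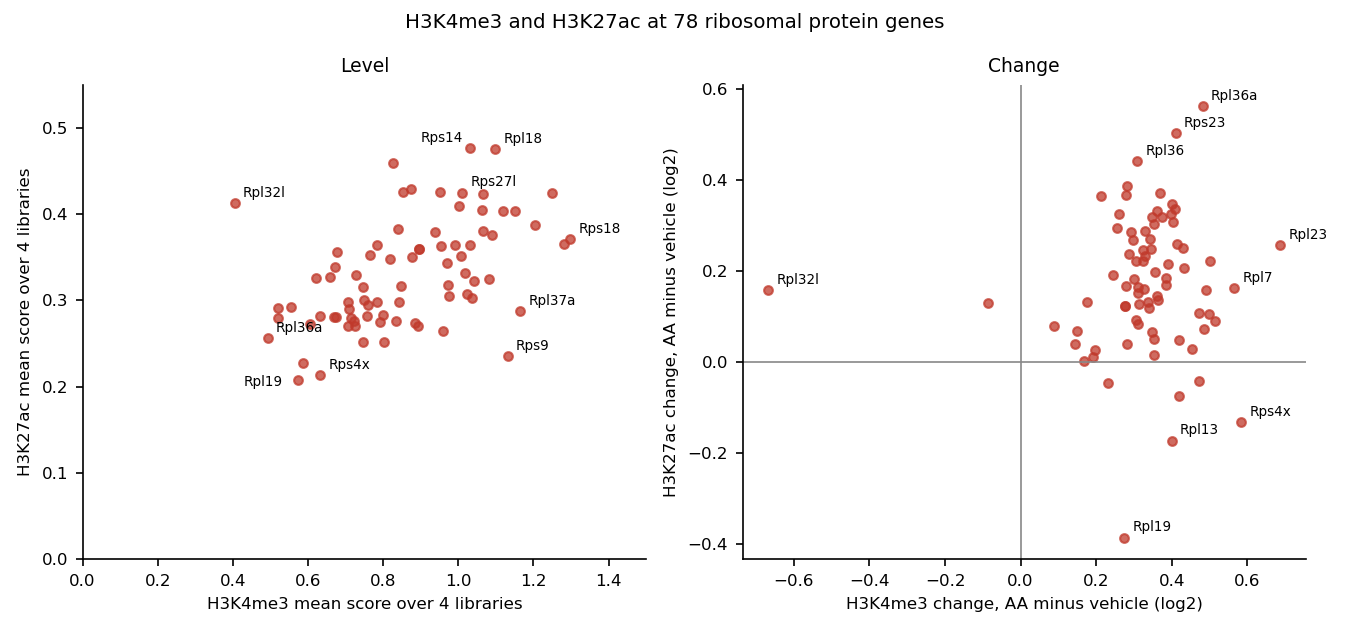
H3K27ac against H3K4me3 at 78 ribosomal protein genes: the mean score over 4 libraries on the left and the change between AA and vehicle (log2) on the right, 1 point per gene. The Spearman correlation is 0.54 for levels and 0.10 for changes, with Rpl23 farthest right and Rpl36a at the top.

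H3K27me3 was scarce at the family. A SEACR peak lay at an end of 20 of the 80 genes, where 35.2% of all protein-coding genes had one, and no MACS2 peak did. Their median score was 0.0915, against 0.138 for all 7705 genes with a peak, and the highest was Rps4x, at 0.163 and 0.154 in AA, against 0.108 and 0.173 in vehicle. None of the 20 was called in either direction, where 0.498% of all peaks and 2.89% of all genes with a peak were called higher and 0.0475% and 0.234% lower. Without adjustment 3 of 20 had a limma p under 0.05, against 20.2% of all genes with a peak. The median change was -0.43, against 0.15 for all genes with a peak and 0.12 for all peaks. The lowest 2 deciles of H3K27me3 level held 5 members each, and all genes there had median changes of -0.28 and -0.23. The third to the sixth decile, which held the other members, had medians between -0.064 and 0.22. The 15 mitochondrial ribosomal protein genes with a peak had a median of -0.38. Whether the family differs from genes of like level was not tested. The median raw depth at these peaks was low, 0.613 and 0.912 fragments per base in AA, against 1.46 and 1.65 in vehicle. The lack of calls is therefore not evidence of no change, and the smallest difference detectable at this depth was not tested.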

How the data were processed

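H3K4me3, H3K27ac and H3K27me3 were each profiled by CUT&RUN in 4 libraries, 2 from AA and 2 from vehicle. The deposited signal is 1 score per peak and library, for peaks from SEACR and MACS2 on mm10, per the submitters' processing notes; for versions, scaling and the aligner used, nothing was given in the sources used here. Multiplied by peak length, each library's scores came out as whole multiples of 1 step (tolerance 0.1 step), and the score over that step served as raw depth. The table's control rows were read as vehicle libraries, since no other group remained for each mark.

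Genes and promoters came from RefSeq GRCm38.p6. AA minus vehicle was tested with limma 3.58.1 (trend, robust; R 4.3.3) over all SEACR peaks of a mark on log2(score + pseudocount), calling a Benjamini-Hochberg adjusted p under 0.05. As pseudocount, percentile 5 of the positive scores was added: 0.0253 (H3K4me3), 0.0693 (H3K27ac) and 0.0329 (H3K27me3), and changes of weak peaks are understated. The difference between marks was an interaction over 8 libraries. Summaries used Python 3.11.15. The test was tested on simulated data, where it called more false H3K4me3 peaks than its threshold states. Same-numbered libraries share only a number.

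Named genes are, per mark, the 5 highest and 5 lowest scores, the 5 largest changes each way and the same among called members, a few members chosen by role, and up to 4 called genes per related list. Other genes were named after their values were seen, and some that the rule names are not reported here. The members and lists were chosen with earlier results of these data known. Alternatives covered peak set, scaling, pseudocount, filter, test, threshold, peak per gene, window, replicate block and leaving out libraries; counting only members whose peak is at no other gene end was chosen after seeing the data.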

Additional observations from a re-analysis of the deposited data

How the results depend on the processing

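For H3K4me3 the count of called members was 6 and the median change 0.34 on the log2 scale. The share of all genes with a peak called higher, 5.45%, is given for each alternative in brackets. The count of members called higher was 12 with MACS2 peaks (9.64%) and 63 with centring on the median of all peaks (37.5%). Centring on the strongest 25% of peaks called 15 higher (9.6%), and the mean over all gene-end peaks 16 (10.2%). Both of these settings also called Rpl32l lower. The count was 10 with only the strongest 50% of peaks (7.02%) and 2 at a threshold of 0.01 (1.52%). It was 0 with limma without trend and robust (0%), also at an unadjusted p under 0.05. With peaks at the RefSeq start, 3 of 57 were called higher (5.38%). Among members whose peak is at no other gene end, 4 of 35 were. With a library left out the count ranged between 0 and 59. The median change was 0.55 with centring on the median, 0.19 on the strongest 25% and 0.12 with quantile normalization, and between 0.24 and 0.45 with a library left out. With the replicate number as a block 17 members were called (10.8%). Same-numbered libraries did not deviate together (r of -0.0023 for H3K4me3, 0.0085 for H3K27ac and 0.0025 for H3K27me3), and the block changed no count for the other marks. The cause of these shifts was not tested, except that the threshold and the restricted sets count fewer genes by construction.

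For H3K27ac no member was called under any alternative. The median change of 0.17 was 0.21 with MACS2 peaks, 0.094 with centring on the median, 0.025 on the strongest 25%, 0.038 with quantile normalization, 0.11 with the pseudocount 4 times larger, and between 0.15 and 0.22 with a library left out. For H3K27me3 the median of -0.43 lay between -0.58 and -0.16 with a library left out, and no MACS2 value could be had. The difference between marks called 14 members with centring on the median, where the median difference was 0.44 for members and 0.36 for all genes. The share of all genes that passed there is not given, so the 14 cannot be set against it. With a library left out, the members' median difference lay between 0.047 and 0.24.

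The following members changed sign. For H3K4me3 these were Rpl3l (0.087 with MACS2, 0.13 with median centring, 0.054 without AA replicate 2), Rps15 (-0.0072 on the strongest 25%, -0.020 quantile, -0.0019 without AA replicate 1), Rps19 (-0.067 and -0.087), and with quantile normalization Rpl37a (-9.2e-05) and Rps18 (-0.035). For H3K27ac they were, with MACS2, Rpl3l (-0.12) and Rpl9 (-0.46); with median centring, Rpl9 (-0.024) and Rps14 (-0.0069); on the strongest 25%, Rpl11 (-0.0091), Rpl39 (-0.050), Rpl3l (-0.011), Rpl5 (-0.014), Rpl9 (-0.093), Rplp2 (-0.068), Rps14 (-0.076) and Rps19 (-0.062); with quantile normalization, Rpl5 (-0.00015), Rpl9 (-0.046), Rplp2 (-0.034), Rps14 (-0.085) and Rps19 (-0.035); Rpl14 with the mean over peaks (0.14); and Rpl19 at the RefSeq start (0.19). With a library left out, H3K27ac ranged from -0.28 to 0.19 at Rpl14, -0.039 to 0.14 at Rpl9, -0.35 to 0.0076 at Rpl13, -0.012 to 0.16 at Rplp2, -0.026 to 0.16 at Rps14, -0.21 to 0.063 at Rps27, -0.00080 to 0.32 at Rps6 and -0.044 to 0.31 at Rpl11. H3K4me3 ranged from -0.0019 to 0.30 at Rps15 and -0.23 to 0.054 at Rpl3l.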
